A study of Mus musculus with 6 samples.

Results

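The circadian clock genes were followed in mouse hearts through 10 members: Arntl, Npas2, Clock, Cry1, Nr1d1, Nr1d2, Per1, Per2, Per3 and Dbp. They were named by symbol, as core activators, repressors and the output factor Dbp, and were found through their Ensembl identifiers. The choice was made with earlier results of these data known. All 10 were among the 20254 genes with values, and all 10 were among the 13823 that passed the filter on low values (10 or more in at least 3 libraries). The hearts came from C57BL/6 mice, 3 wild type (WT) and 3 Trdn-as knockout (KO), where Trdn-as is a long non-coding RNA whose name marks it as antisense to Trdn, the gene of triadin. Replicates 1 and 2 of each genotype were aged 14 months, and replicate 3 was aged 5 months. No source used here gives the construction of the knockout, the hour of dissection, the light cycle or the feeding state. The libraries are written as WT-1 to WT-3 and KO-1 to KO-3.

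The mammalian clock is a transcriptional feedback loop found in nearly every cell, cardiomyocytes included. BMAL1, the product of Arntl, pairs with CLOCK or NPAS2, binds E-box sequences and switches on the Per, Cry and Nr1d genes and Dbp. PER and CRY proteins then hold that pair back, while REV-ERB proteins (from Nr1d1 and Nr1d2) compete with ROR factors at another element and repress Arntl, Npas2, Clock, Cry1 and Nfil3. DBP and its relatives TEF and HLF act at D-boxes, where NFIL3 opposes them. In mouse tissues Arntl and Npas2 are therefore high at about the opposite time of day from Nr1d1 and Dbp, with the Per genes high later than these, so that 1 heart shows 1 point on the cycle.

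Values are the deposited normalized gene-level signal, in which the library totals were 19810000 to 23510000. Mitochondrially encoded genes took 40.0 to 49.4% of it. Cardiomyocyte markers were abundant in every heart: Myh6, Tnnt2, Actc1, Myl2, Myl3 and Tnni3 were all present. They summed to between 495200 (KO-1) and 1059000 (WT-3). Actc1 was at 42240 in KO-3 and at 121200 to 133200 in the other hearts. Trdn-as itself was not analysed here; Trdn stood at 5600 to 9104 in WT and 3429 to 5606 in KO. The 4 Y-linked genes Ddx3y, Uty, Kdm5d and Eif2s3y summed to 2496 to 4482 in replicates 1 and 3 but to 54.9 and 82.2 in WT-2 and KO-2, which therefore read as female, so both 5-month hearts are male. Nothing in the labels states litters or that the hearts were processed together, so p-values measure the spread between these 6 hearts. In whole-heart RNA, fewer cells of a type and less RNA per cell cannot be told apart.

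No clock gene (0 of 10) differed between KO and WT past an adjusted p of 0.05 (limma, age as a covariate), and no gene in the whole table did (background 0.00%). Between the ages 4 of the 10 passed, where 33.7% of all genes did: Arntl, Npas2 and Per1 were lower and Nr1d2 was higher at 5 months. Within the 14-month hearts Arntl, Npas2 and Cry1 lay higher in both KO than in both WT libraries (17.2% of all genes), and Per2 lay lower (17.9%). The library KO-1 held the highest Arntl, Npas2 and Cry1 (14.8% of all genes were highest there) and the lowest Nr1d2, Per2, Per3 and Dbp (16.3% were lowest there) of all 6.

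**Figure D1:**
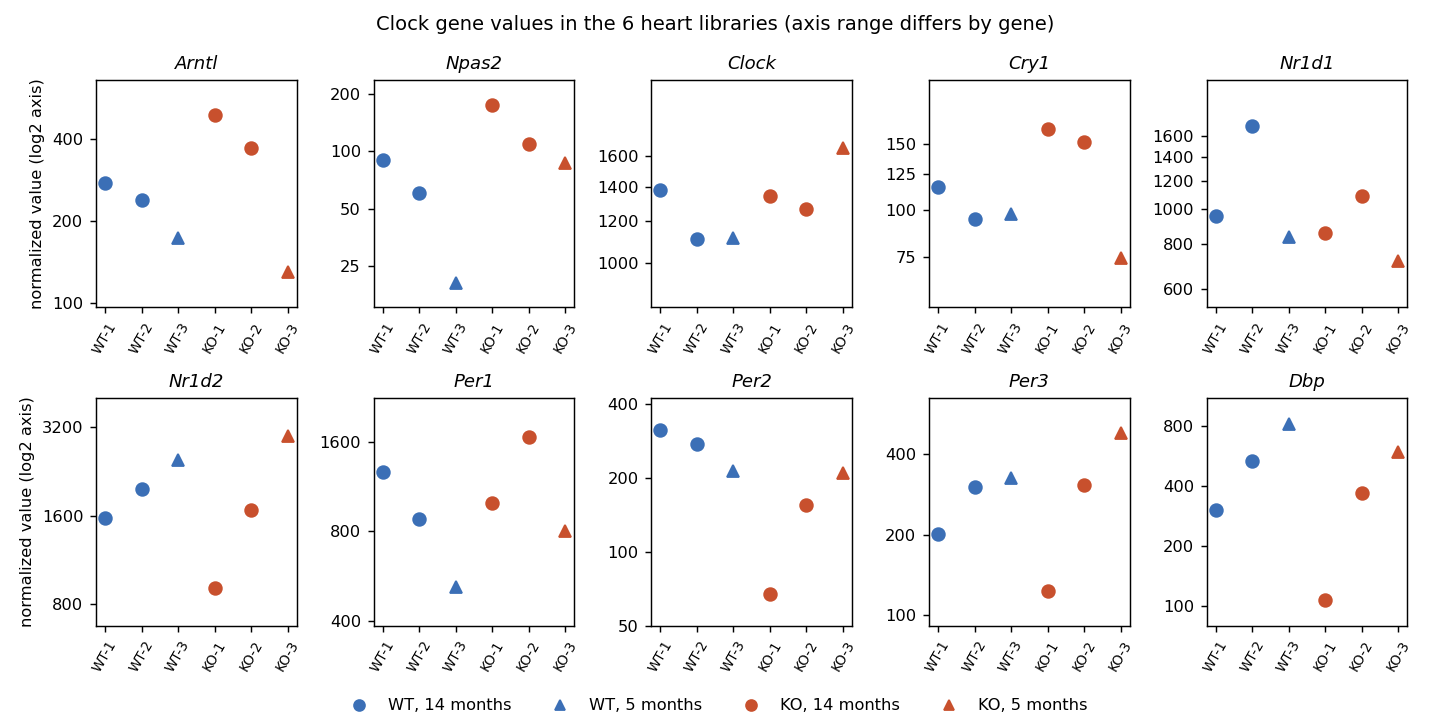
Normalized value (vertical log2 axis, range set per gene) of the 10 clock genes in each of the 6 libraries (horizontal axis). Blue is WT, orange is KO, circles are 14 months and triangles 5 months; each point is 1 heart. KO-1 is the highest point for Arntl, Npas2 and Cry1 and the lowest for Nr1d2, Per2, Per3 and Dbp.

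Per kilobase of annotated exon, the level averaged over the 6 libraries was highest for the REV-ERB genes, at 357 for Nr1d2 and 334 for Nr1d1. Per1 (182), Dbp (152) and Clock (95.6) came next. Arntl (37.3), Cry1 (34.9), Per2 (34.9), Per3 (30.2) and Npas2 (18.9) were lowest on the same scale. The ranges over the libraries of neighbours in that order overlapped except between Clock, 80.7 at its lowest, and Arntl, 65.2 at its highest. On the log2 scale the SD over the 6 libraries was 1.03 for both Npas2 and Dbp and 0.22 for Clock, against a median of 0.35 over all genes tested. The highest library exceeded the lowest by over 2-fold in 9 of the 10 members, all but Clock, as it did in 43.4% of all genes tested (value + 1).

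Arntl, the gene of BMAL1 (ENSMUSG00000055116, chromosome 7, 113207465 to 113314126, plus strand, mm10), stood at 276, 239.9 and 173 in WT-1, WT-2 and WT-3. In KO-1, KO-2 and KO-3 it stood at 491, 373 and 130.4. Both 14-month KO hearts lay above both 14-month WT hearts, and the 5-month hearts of both genotypes lay below all 4. The fitted KO minus WT difference was 0.35 log2 (SE 0.24, 95% interval −0.21 to 0.92, limma adjusted p = 0.745). Arntl fell at 5 relative to 14 months by 1.14 log2 (SE 0.26, limma adjusted p = 0.0126), to 0.454 of its 14-month level. Without KO-3 that difference was −0.57 and did not pass (limma adjusted p = 0.0755). The KO minus WT difference was 0.73 log2 at 14 months and −0.41 in the 5-month pair, and the test of the change between the ages missed the threshold (−1.14, SE 0.30, limma adjusted p = 0.0930).

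Npas2, a paralogue of Clock that can take its place beside BMAL1 (ENSMUSG00000026077, chromosome 1, 39193731 to 39363236, plus strand), was the least abundant member. Its values were 89.5, 60.1 and 20.4 in WT-1 to WT-3 and 176, 109 and 87.0 in KO-1 to KO-3. Each KO heart was above the WT heart of the same number, yet the genotypes overlapped, since KO-3 was just under WT-1. The KO minus WT difference was 1.29 log2 (SE 0.32, 95% interval 0.55 to 2.03), 2.44-fold, with an unadjusted p = 0.00392 and a limma adjusted p = 0.745. By number the differences were 0.97, 0.85 and 2.04, the last from the 5-month pair. Npas2 fell at 5 months by 1.23 log2 (SE 0.34, limma adjusted p = 0.0267), although KO-3 at 87.0 was above the 14-month WT-2 at 60.1. That age call was lost without WT-3 (−0.67, limma adjusted p = 0.214), and also without WT-1 (adjusted p = 0.0654) or KO-1 (adjusted p = 0.0674).

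Clock, the usual partner of BMAL1 (ENSMUSG00000029238, chromosome 5, 76209868 to 76304792, minus strand), varied little. It stood at 1379, 1108 and 1117 in WT-1 to WT-3 and 1341, 1269 and 1663 in KO-1 to KO-3. The genotypes and the ages overlapped, and the highest value was that of the 5-month KO heart. The difference was 0.24 log2 for KO minus WT (SE 0.15, limma adjusted p = 0.745) and 0.10 for 5 minus 14 months (SE 0.15, limma adjusted p = 0.641).

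Cry1, a cryptochrome that represses the BMAL1 pair (ENSMUSG00000020038, chromosome 10, 85131700 to 85185064, minus strand), stood at 115, 94.9 and 97.5 in WT-1 to WT-3. In KO-1 to KO-3 it was at 165, 152 and 74.4. As with Arntl, both 14-month KO hearts were above both WT hearts, and the 5-month KO heart was the lowest of the 6. The KO minus WT difference was 0.27 log2 (SE 0.24, limma adjusted p = 0.767), made of 0.60 at 14 months and −0.39 in the 5-month pair. The change of that difference between the ages was −0.98 (SE 0.34, limma adjusted p = 0.147), and 5 minus 14 months was −0.59 (SE 0.25, limma adjusted p = 0.108). That age difference was −0.10 without KO-3 and passed without WT-3 (−1.08, limma adjusted p = 0.014).

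Start-site windows that hold the letters of a clock element are shown because the loop is defined by such elements. RefSeq windows (GRCm38.p6, 250 bases before to 50 after the start) were matched for 9 members, 13 windows in all; Per2 is named only. Both strands were searched for the E-box CACGTG, a related E-box CACGTT, the ROR and REV-ERB core TAGGTCA and the D-boxes TTATGTAA and TTACGTAA. None of these letter strings overlapped another in the member windows. CACGTG was in the windows of Cry1 and Per1 (7.15% of all 32851 windows hold it), CACGTT in those of Cry1 and Nr1d1 (4.68%), TAGGTCA in 1 of 2 Arntl windows (2.61%) and TTATGTAA at 2 places in Per3 (0.938%), while TTACGTAA was in none (0.119%). A match is a description of the letters and not a bound site. In the sequences, read 5′ to 3′ on the gene's strand, capitals mark the matches; Arntl is shown as 30 bases around its match (chr7:113207530-113207559), and the others as the 250 bases before the start. Cry1 is chr10:85185055-85185304 (minus strand), Nr1d1 chr11:98775378-98775627 (minus strand), Per1 chr11:69098699-69098948 (plus strand) and Per3 chr4:151044666-151044915 (minus strand).
Arntl: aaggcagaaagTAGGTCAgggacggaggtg
Cry1: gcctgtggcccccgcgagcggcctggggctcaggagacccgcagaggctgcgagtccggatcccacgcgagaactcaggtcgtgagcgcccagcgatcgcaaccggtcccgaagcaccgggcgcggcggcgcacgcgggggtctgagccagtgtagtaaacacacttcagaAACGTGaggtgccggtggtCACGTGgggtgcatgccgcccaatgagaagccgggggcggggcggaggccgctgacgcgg
Nr1d1: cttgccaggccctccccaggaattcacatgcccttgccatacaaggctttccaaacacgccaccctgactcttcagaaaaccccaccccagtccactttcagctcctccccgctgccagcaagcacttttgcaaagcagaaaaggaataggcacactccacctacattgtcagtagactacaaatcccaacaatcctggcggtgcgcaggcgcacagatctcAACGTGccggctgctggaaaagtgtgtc
Per1: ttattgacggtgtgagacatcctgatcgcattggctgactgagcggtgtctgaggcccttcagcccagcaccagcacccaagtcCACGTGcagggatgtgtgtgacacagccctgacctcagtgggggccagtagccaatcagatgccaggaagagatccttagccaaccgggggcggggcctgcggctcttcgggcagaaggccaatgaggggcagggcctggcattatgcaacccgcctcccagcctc
Per3: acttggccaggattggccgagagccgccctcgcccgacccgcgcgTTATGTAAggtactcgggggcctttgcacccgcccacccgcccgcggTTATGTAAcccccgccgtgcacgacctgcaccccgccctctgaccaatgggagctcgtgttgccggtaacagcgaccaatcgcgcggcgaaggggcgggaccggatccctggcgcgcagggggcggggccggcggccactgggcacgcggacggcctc
In Cry1 the E-box begins 60 bases before the start and the related element, found as its reverse complement, 79 bases before. In Per1 the E-box begins 166 bases before the start, and in Nr1d1 the related element 28 bases before. The Per3 D-boxes begin 205 and 158 bases before the start, and the Arntl core begins at base 31 of the transcript. Of the 2 members with CACGTG, Cry1 was highest in KO-1 and Per1 in KO-2.

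Nr1d1, which encodes REV-ERB alpha (ENSMUSG00000020889, chromosome 11, 98767932 to 98775333, minus strand), stood at 958, 1706 and 835 in WT-1 to WT-3. The KO values were 857, 1087 and 719. WT-2 was the highest, and the genotypes overlapped. The 5-month hearts were the lowest of the 6, but the age difference did not pass (−0.52 log2, SE 0.22, limma adjusted p = 0.112). It passed without WT-1 (−0.68, limma adjusted p = 0.0443) and was −0.33 without WT-2. KO minus WT was −0.34 (SE 0.21, limma adjusted p = 0.745), and −0.09 without WT-2. Thra, annotated on the opposite strand, shares 8.55% of the Nr1d1 exon bases; it stood at 835 to 1283, and whether the quantification used strand is not given.

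Nr1d2, which encodes REV-ERB beta (ENSMUSG00000021775, chromosome 14, 18204054 to 18239127, minus strand), was at 1575, 1978 and 2475 in WT-1 to WT-3 and at 910.4, 1669 and 2982 in KO-1 to KO-3. Unlike Nr1d1, it was highest in the 5-month hearts, both above all 14-month hearts. It rose at 5 months by 0.88 log2 (SE 0.27, limma adjusted p = 0.0364), 1.84-fold. That call stood close to the threshold: it was lost without the filter (limma adjusted p = 0.0534), under quantile normalization (0.78, limma adjusted p = 0.0682) and without WT-1 (adjusted p = 0.0818), WT-3 (adjusted p = 0.0752) or KO-3 (0.49, limma adjusted p = 0.396). KO minus WT was −0.26 (SE 0.25, limma adjusted p = 0.786), and 0.07 without KO-1.

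Per1, a PERIOD repressor that also responds quickly to glucocorticoids and other signals (ENSMUSG00000020893, chromosome 11, 69095217 to 69109960, plus strand), was at 1270.5, 879 and 519 in WT-1 to WT-3. In KO-1 to KO-3 it was at 997, 1669 and 799.9. KO-2 was the highest, and the 5-month hearts were below all others. Per1 fell at 5 months by 0.86 log2 (SE 0.23, limma adjusted p = 0.0248), to 0.552 of its 14-month level. The call was lost without WT-3 (−0.69, limma adjusted p = 0.232), KO-3 (adjusted p = 0.104), KO-2 (adjusted p = 0.0615) or WT-1 (adjusted p = 0.0596). KO minus WT was 0.40 (SE 0.22, limma adjusted p = 0.745), with −0.35, 0.92 and 0.62 by number.

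Per2, the PERIOD gene central to the loop (ENSMUSG00000055866, chromosome 1, 91415982 to 91459324, minus strand), was the only member whose genotypes did not overlap. WT-1 to WT-3 gave 312, 273 and 212, and KO-1 to KO-3 gave 67.5, 154 and 208. All 3 KO values were below all 3 WT values, as in 2.89% of all genes tested, while no member had all 3 above (2.88%), and KO-3 at 208 was just under WT-3 at 212. The KO minus WT difference was −1.01 log2 (SE 0.38, 95% interval −1.88 to −0.14), 0.496 of WT, with an unadjusted p = 0.0276 and a limma adjusted p = 0.745. By number it was −2.19, −0.82 and −0.03. Without KO-1 it was −0.53. The change of the genotype difference between the ages was 1.48 (SE 0.67, limma adjusted p = 0.259).

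Per3, a PERIOD gene less needed for rhythm (ENSMUSG00000028957, chromosome 4, 151003652 to 151044665, minus strand), was at 202, 303 and 325 in WT-1 to WT-3 and at 123, 307 and 481 in KO-1 to KO-3. The 2 KO extremes enclosed all WT values. The 5-month hearts were above all 14-month hearts, with a difference of 0.85 log2 (SE 0.38, limma adjusted p = 0.123). KO minus WT was −0.04 (SE 0.36, limma adjusted p = 0.975), and 0.42 without KO-1.

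Dbp, a D-box activator and a direct output of the loop (ENSMUSG00000059824, chromosome 7, 45705088 to 45710203, plus strand), had values of 302, 533 and 818 in WT-1 to WT-3. KO-1 to KO-3 were at 107, 369.7 and 593. The 5-month hearts were above all 14-month hearts, and KO-1 was the lowest. KO minus WT was −0.82 log2 (SE 0.47, 95% interval −1.95 to 0.30, limma adjusted p = 0.745), with −1.48, −0.53 and −0.46 by number, and −0.27 without KO-1. Dbp differed by 1.30 log2 between 5 and 14 months (SE 0.50, limma adjusted p = 0.0901), and passed when KO-1 (0.88, limma adjusted p = 0.0409) or KO-2 (1.64, limma adjusted p = 0.0225) was left out. Sphk2, annotated on the opposite strand over 18.0% of the Dbp exon bases, stood at 149 to 322 and was lowest in the 5-month hearts.

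**Figure D2:**
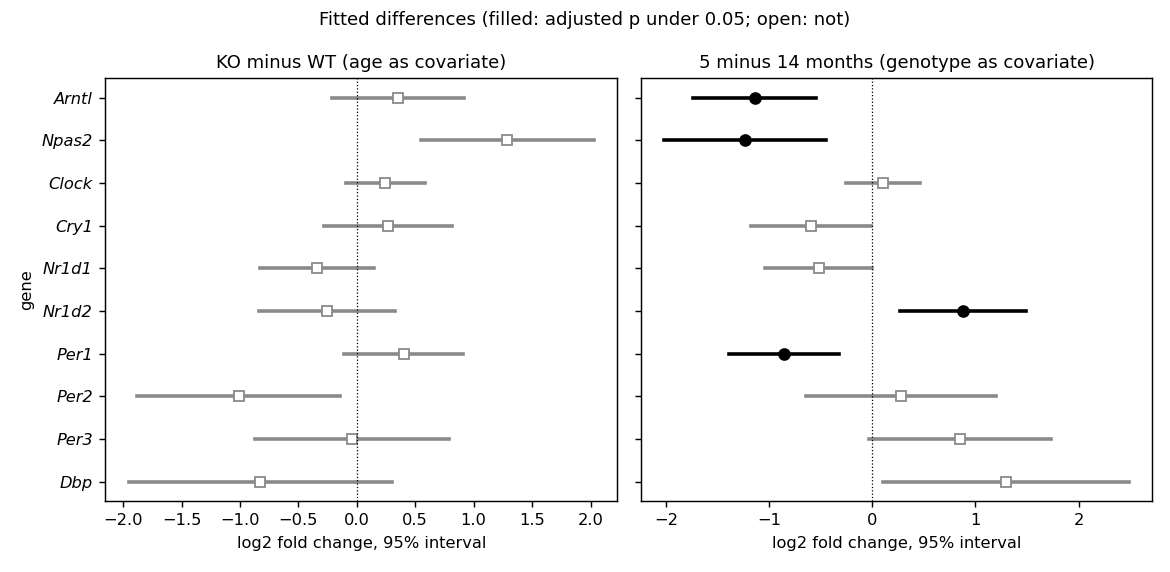
Fitted log2 fold change (horizontal axis) of the 10 clock genes (vertical axis) with its 95% interval from limma, for KO minus WT on the left and 5 minus 14 months on the right. Filled circles passed an adjusted p of 0.05 and open squares did not; Arntl, Npas2, Nr1d2 and Per1 passed between the ages and none between the genotypes.

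Between the genotypes 0 of 10 members passed, 5 were above WT and 5 below, and the median log2 difference was 0.10 beside −0.02 over all genes tested. At an unadjusted limma p under 0.05 there were 2, Npas2 above and Per2 below, where 6.08% of all genes were past it, 3.21% above and 2.87% below. limma-voom, run on the same values, gave 0 by adjusted p and 1 unadjusted, Npas2 (4.83% of all genes). At 14 months alone 3 of 10 members had both KO hearts above both WT hearts, as 17.2% of all genes did, and 1 had both below, as 17.9% did. None of the 10 passed in the 14-month hearts alone (limma, 4 unadjusted: Arntl, Npas2, Cry1 and Per2; 6.21% of all genes), where 0.101% of all genes did.

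Between the ages 3 of 10 members fell at 5 months (background 17.7% of all genes lower) and 1 rose (background 16.0% higher). The median was −0.21 beside −0.02 over all genes. Both 5-month hearts were below all 14-month hearts in Arntl, Nr1d1 and Per1 (25.7% of all genes) and above them in Nr1d2, Per3 and Dbp (25.0%). So the 2 REV-ERB genes lay on opposite sides, and so did Per1 and Per3. In the male hearts alone, chosen after the data were seen, 6 members passed, as did 3011 of the 13823 genes, in a fit of 4 hearts with 1 residual degree of freedom. By limma-voom Npas2 (−1.11, adjusted p = 0.0747) and Nr1d2 (0.81, adjusted p = 0.0844) did not pass. The count of members was 1 without KO-3, where 4533 of all genes passed. It was 2 without WT-1 (3246 of all genes; Arntl and Nr1d1) and 2 without WT-3 (4449 of all genes; Arntl and Cry1). The age groups hold 2 and 4 hearts, and age cannot be told apart from the day or the hour at which each age was taken.

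The genotype difference changed between the ages in 0 of 10 members (limma, 2 residual degrees of freedom), where 2.08% of all genes passed, or 1.07% by limma-voom, also with 0 members. At an unadjusted p under 0.05 there were 2, Arntl and Cry1, both lower (13.1% of all genes lower). These 2 were also the members with both KO hearts above both WT hearts at 14 months and KO below WT at 5 months, an order that 8.70% of all genes had. The reverse order was in no member and in 7.72% of all genes. The fitted change was above 0 in 8 members and below 0 in 2, where 6440 of the 13823 genes tested were above 0. Its median was 0.52 log2 in the members beside −0.05 over all genes tested. At 5 months each genotype is a single heart.

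**Figure D3:**
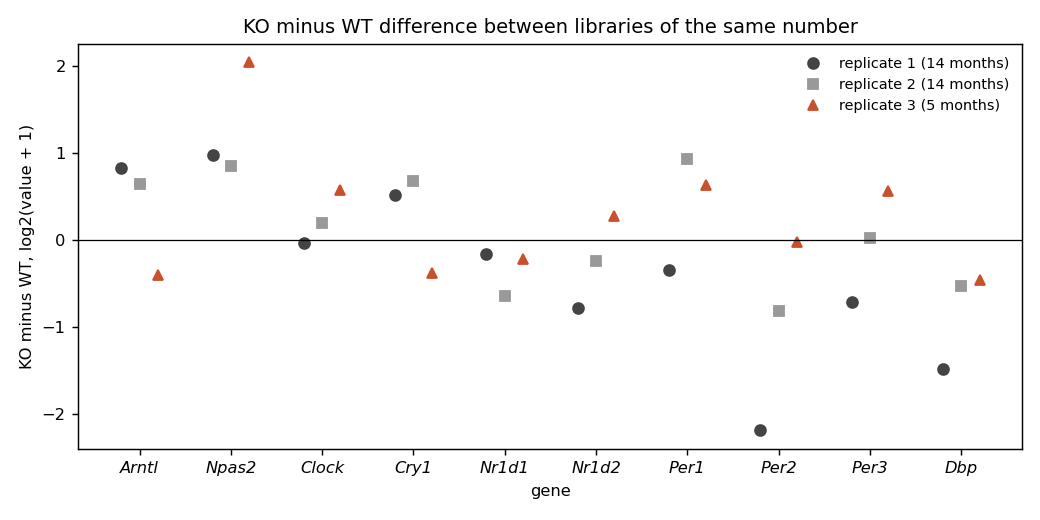
Difference of log2(value + 1) between the KO and WT library of the same number (vertical axis) for the 10 clock genes (horizontal axis). Circles and squares are numbers 1 and 2 at 14 months, and orange triangles are number 3 at 5 months. Hearts of the same number were not taken as pairs. Npas2 is above 0 for all 3 numbers, and Per2 runs from −2.19 to −0.03. Arntl and Cry1 are above 0 at 14 months and below it at 5 months.

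Among the 14-month hearts, Arntl, Npas2 and Cry1 lay at the opposite end from Nr1d1, Nr1d2 and Dbp in KO-1 and WT-2. Arntl, Npas2 and Cry1 shared 1 order, KO-1, KO-2, WT-1 and WT-2 from high to low, an order held by 4.22% of all genes. Nr1d1, Nr1d2 and Dbp shared another, WT-2, KO-2, WT-1 and KO-1 from high to low, also held by 4.22%. These orders were taken up after their values were seen. The other 4 members had neither order: Clock and Per2 were highest in WT-1, Per1 in KO-2 and Per3 in KO-2 among these hearts. KO-1 was the highest library for 3 of 10 members (14.8% of all genes) and the lowest for 4 (16.3%). KO-3 was the highest for 3 (20.2%) and the lowest for 3 (25.5%).

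Hearts of the same genotype and age also differed; at 14 months the compared hearts differ in sex as well, by the Y-linked values. WT-1 minus WT-2 was −0.83 log2 for Nr1d1, −0.82 for Dbp and 0.57 for Npas2. KO-1 minus KO-2 was −1.78 for Dbp, −1.32 for Per3, −1.18 for Per2, −0.87 for Nr1d2, −0.74 for Per1 and 0.69 for Npas2, but 0.08 for Clock and 0.11 for Cry1. The median size of these differences over all genes tested was 0.17 in both genotypes. For Arntl, Nr1d2, Per1, Per2, Per3 and Dbp the KO-1 to KO-2 gap was larger in size than the genotype difference fitted over both ages. For Npas2, Clock and Cry1 it was smaller, and for Nr1d1 both were −0.34. Within the 14-month hearts KO minus WT was 0.73 for Arntl and −1.51 for Per2. Those were larger in size than the KO-1 to KO-2 gaps of 0.39 and −1.18 and the WT-1 to WT-2 gaps of 0.20 and 0.19. For Nr1d2, Per1, Per3 and Dbp the KO-1 to KO-2 gap stayed larger than the 14-month difference.

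Differences between 2 genes of the same library, which library scaling moves little, were spread as well. Arntl minus Dbp was 2.18 log2 in KO-1, 0.01 in KO-2, −0.13 in WT-1 and −1.15 in WT-2. In the 5-month hearts it was −2.23 in WT-3 and −2.18 in KO-3. At 14 months both KO hearts lay above both WT hearts on this measure. KO-2 and WT-1 lay close together, and the gaps within each genotype were wider than the gap between these 2 hearts. Npas2 minus Nr1d1 ran from −5.29 in WT-3 to −2.27 in KO-1. Npas2 minus Per3 ran from −3.93 in WT-3 to 0.52 in KO-1, with −2.45 in KO-3. These values describe the libraries and carry no test.

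**Figure D4:**
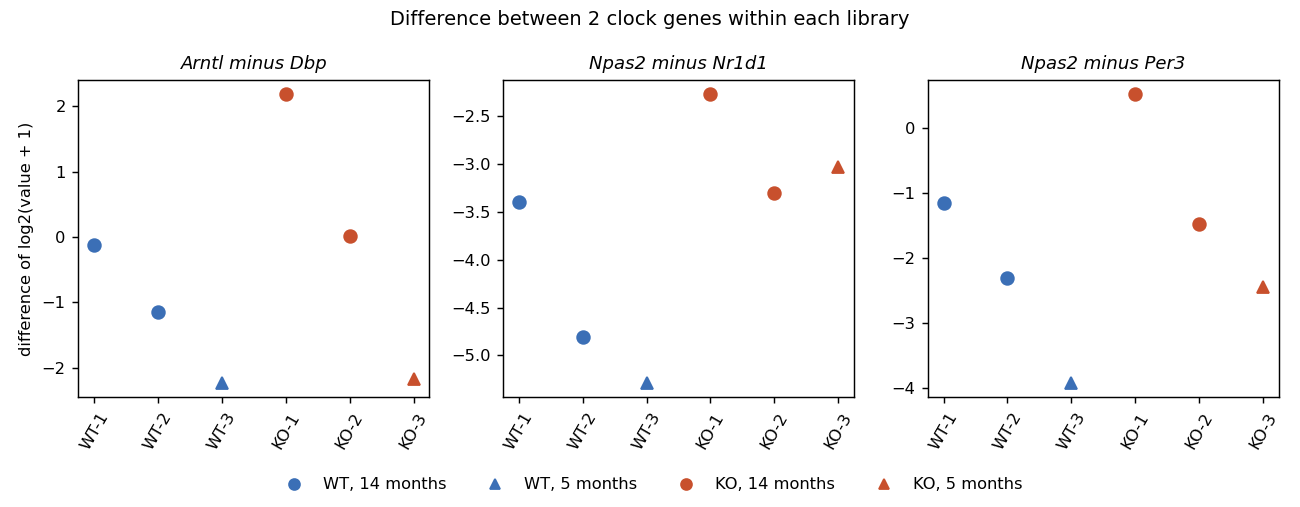
Difference of log2(value + 1) between a pair of clock genes within each library (vertical axis; library on the horizontal axis), with blue for WT, orange for KO, circles for 14 months and triangles for 5 months. KO-1 is highest in all 3 panels and WT-3 lowest; in Arntl minus Dbp the 5-month hearts sit together at −2.23 and −2.18.

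Other genes of the clock were counted from a wider list of 23, of which 22 were tested. Between the genotypes 0 passed, with 11 above and 11 below WT and a median of −0.01. The 3 of smallest p were Noct, a clock-driven phosphatase gene, at −0.30 (SE 0.12), Bhlhe40, an E-box repressor, at −0.54 (SE 0.23), and Arntl2, the BMAL1 paralogue, at 0.61 (SE 0.28); limma adjusted p = 0.745 for each. Between the ages 1 of 22 rose and 7 fell (median −0.25), where 16.0% of all genes rose and 17.7% fell. Nampt, the NAD salvage enzyme under clock control, rose by 0.64 log2 (SE 0.12, limma adjusted p = 0.00651), but missed the threshold under quantile normalization (0.40, limma adjusted p = 0.0532). The largest falls were Nfil3, the D-box repressor (−1.10), Bhlhe40 (−0.94), Bhlhe41 (−0.84) and Gsk3b, a kinase of clock proteins (−0.74). Gsk3b passed under every alternative run, while the others did not. Nfil3 was lost without KO-3 (−0.51, limma adjusted p = 0.235), KO-1, KO-2 or WT-1, Bhlhe40 without KO-3 (−0.86, limma adjusted p = 0.18), WT-1 or WT-3, and Bhlhe41 without WT-3 (−0.42, limma adjusted p = 0.154). The change of the genotype difference between the ages passed in 0 of 22, with Csnk1e at 0.76 (limma adjusted p = 0.0755), Rora at 0.69 (limma adjusted p = 0.109) and Bhlhe41 at 0.84 (limma adjusted p = 0.147) nearest to it.

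Nfil3 and Tef encode other factors that act at D-boxes. Nfil3 values were 199, 124 and 110.1 from WT-1 to WT-3 and 269, 226 and 75.7 from KO-1 to KO-3, the order of Arntl at 14 months. Tef, the D-box activator related to Dbp, had 1414, 1997 and 1845 in the WT hearts and 941, 1361 and 2333 in the KO hearts, lowest in KO-1 like Dbp. Hlf, of the same family, instead fell at 5 months and was lowest in KO-3 at 187.

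**Figure D5:**
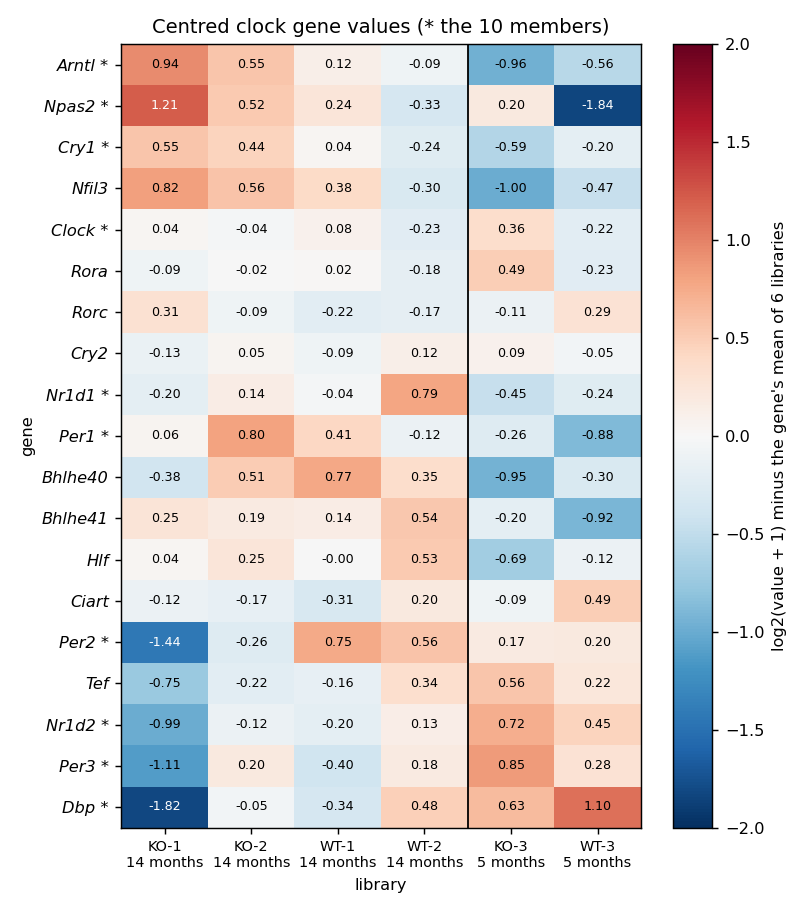
Log2(value + 1) minus the gene's mean of the 6 libraries (colour and printed value) for the 10 clock genes (asterisks) and 9 further clock genes in rows, with libraries in columns and a line between 14 and 5 months. Arntl, Npas2, Cry1 and Nfil3 are highest and Per2, Tef, Nr1d2, Per3 and Dbp lowest in KO-1, while Cry2 stays within −0.13 and 0.12.

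Genes that follow the clock in heart were counted from a list of 17, all tested. Between the genotypes 0 passed; among those of smallest p were Pik3r1, a regulatory subunit of phosphoinositide 3-kinase (−0.38, SE 0.13), and Klf15, a clock-driven metabolic regulator (−0.40, SE 0.14), at limma adjusted p = 0.745 each. Between the ages 3 of 17 rose and 2 fell, counts close to or under the 16.0% and 17.7% of all genes: the cold-inducible RNA-binding genes Cirbp (0.79, SE 0.14) and Rbm3 (0.79, SE 0.18) and Pik3r1 (0.45, SE 0.14) rose, and the ketone-body enzyme Bdh1 (−1.08, SE 0.21) was among those that fell. Pik3r1 did not pass under limma-voom (0.38, limma adjusted p = 0.141), quantile normalization (0.33, limma adjusted p = 0.119), in the male hearts alone, or without any 1 heart other than WT-3 (without KO-3, 0.29, limma adjusted p = 0.169). Rbm3 did not pass without WT-3 (0.52, limma adjusted p = 0.091). The genotype by age change passed in 0 of 17, with Tsc22d3, a glucocorticoid target (−1.14, limma adjusted p = 0.104), and Bdh1 (−0.88, limma adjusted p = 0.128) nearest to it.

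Likeness to Arntl and Dbp was measured as the root mean square difference of log2 values centred on each gene's mean of the 6 libraries. Nearest to Arntl were Fads2 (0.13), Trp53bp2 (0.13), Acsl5 (0.15), Syt3 (0.15) and Colq (0.15). Nfil3 was sixth of all tested genes outside the members (0.15), and Cry1 was the nearest member (0.28). On the same scale Rorb, from the wider clock list, was at 0.29 and ranked 188 among the tested genes outside the members. Nearest to Dbp were Ovgp1 (0.35), Ptpn18 (0.37), Gnmt (0.38) and Scgb1c1 (0.40), with Nr1d2 (0.46) and Per3 (0.48) the nearest members. Ovgp1 and Gnmt had low values, at most 37.9. After Cry1, the members nearest to Arntl were Per1 (0.51), Nr1d1 (0.66), Clock (0.71) and Npas2 (0.72), and Dbp was the farthest (1.52).

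Markers of other cell types, immediate early genes and glucocorticoid targets were also read in each library. The immediate early genes were Fos, Fosb, Egr1, Jun, Nr4a1 and Atf3. They summed to 3362 and 4200 in the 14-month KO hearts, 2395 and 1374 in the 14-month WT hearts, and 924.7 and 1176 at 5 months. In the fit all 6 were above WT, as 6368 of the 13823 genes tested were, but 0 passed (0.00% of all genes). By unadjusted limma p under 0.05, 5 of the 6 were higher in KO, where 3.21% of all genes were. At 5 months all 6 lay below, and 5 passed as lower, where 17.7% of all genes did. Of 10 adipocyte markers the sum overlapped between WT (10940 to 14790) and KO (12230 to 15580). Of these, Adipoq, Plin1, Cidec, Cfd, Ucp1 and Lep were higher in both 14-month KO than in both 14-month WT hearts (17.2% of all genes). Plin4 was lower (17.9%), and Fabp4, Retn and Lipe overlapped. Lep did not pass the filter on low values. Ucp1 was at 108, 8.71 and 26.5 in WT-1 to WT-3 and at 465, 788 and 4.26 in KO-1 to KO-3, so the 5-month KO heart was the lowest. Atrial markers summed to 38740 and 60740 at 5 months and 12590 to 23360 at 14 months. All 4 passed as higher at 5 months, where 16.0% of all genes did. Of the 6 cardiomyocyte markers named earlier, 5 also lay above at 5 months and 4 passed, while 1 lay below. The airway marker Scgb1a1 was at 518 in KO-1 and at 2.91 or less elsewhere, while Sftpc was at 3.07 or less in all. Erythroid markers summed to 66820 in WT-1 and 2727 to 19390 in the rest. Macrophage markers summed to 3017 to 3668 in WT and 2242 to 3811 in KO, and skeletal muscle markers to 9.76 or less. Among the glucocorticoid targets, which include Per1, the sum was 6780 to 9058 in WT and 5058 to 7558 in KO. Within it Fkbp5 was at 581 to 622 in WT and 283 to 356 in KO. Zbtb16 was at 1248 to 1403 in WT and 281 to 729 in KO. Both lay lower in all KO than in all WT hearts, as 2.89% of all genes did. The other 4 overlapped between the genotypes. The part of any of these markers in the clock gene values was not tested.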

How the data were processed

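RNA sequencing of 6 mouse hearts was analysed. Salmon 1.5.2 and mm10 are named in the submitters' processing notes; no source used here gives the annotation, strand setting or normalization step. The deposited values were read as a normalized signal per gene, because the median over genes of value over geometric mean was 1.00 to 1.01 in each library. They are not whole reads: 5.76 to 11.6% of values under 20 lay at whole multiples of the commonest low value (tolerance 0.01), so read depth and counting intervals are not given. Of 20362 lines, 108 were broken and left out; 20122 of 20254 identifiers matched a GENCODE M21 (GRCm38, as mm10) symbol. In no pair of libraries were more than 5.12% of genes within 1% of each other, so none was a duplicate.

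limma 3.58.1 in R 4.3.3 was fitted to log2(value + 1) for the 13823 genes at 10 or more in 3 libraries (trend and robust options, Benjamini-Hochberg over all genes, threshold 0.05), with genotype and age as terms (3 residual degrees of freedom) and their product in a second model. Fold changes are on the log2(value + 1) scale, which understates low genes. The code was tested on simulated data. Groups and ages follow the labels, and alternatives are in the closing section. Tables were joined in Python 3.11.15 with pandas 2.3.3. The members, lists and tests were chosen with earlier results of these data known; text names all 10 members, the called list genes of largest change (at most 4 a direction) or the 3 of smallest p, and the 5 genes nearest to Arntl and to Dbp, except for some that are not reported here. The values of Nfil3, Tef, Hlf and of marker genes were added after they were seen.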

Additional observations from a re-analysis of the deposited data

How the results depend on the processing

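No clock gene passed between KO and WT under any alternative run (pseudocount 5, no filter, quantile normalization, upper-quartile scaling, limma-voom, no age term, replicate block, 14-month hearts alone, male hearts alone, each heart left out). Over all genes that count moved from 0 to 14 in the 14-month hearts alone and 39 in the male hearts alone, and ran from 0 to 5 with 1 heart left out. With the replicate block it stayed at 0 members and 0 genes. Same-number hearts correlated at 0.22, 0.23 and 0.41 after the gene mean was removed, but cross pairs at 14 months reached 0.22, and the value was 0.01 once genotype means within 14 months were removed, so the numbers were not taken as pairs. Per3, KO minus WT, turned to 0.07 under limma-voom, and with 1 heart left out ran from −0.35 to 0.42; Nr1d2 ran from −0.52 to 0.07. Between the ages 4 members became 2 under limma-voom, 3 without the filter or under quantile normalization, and 1 to 4 with 1 heart left out, and the 4663 genes became 3011 in the male hearts alone. Clock (−0.15 to 0.35) and Per2 (−0.46 to 1.02) changed sign there with 1 heart left out. For the genotype by age change, 287 genes became 148 under limma-voom, 12 under quantile normalization and 4 without the filter, and 13 to 234 with 1 heart left out, 14-month hearts only; members ran from 0 to 1, Per2 passing without KO-2. Its sign turned in Nr1d1 (−0.23 to 0.61), Per1 (−0.03 to 0.71) and Dbp (−0.35 to 1.43). The median of all genes in that contrast was 0.24 under limma-voom against −0.05. The cause of these moves was not tested. Read depth was not available, and 1 heart per genotype at 5 months limits the precision.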

Other observations

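A pair of fasting-responsive genes from the heart output list had a library pattern unlike the clock members, and were picked out after their values were seen. Pdk4, a kinase that restrains pyruvate oxidation, had 4926, 23760 and 7169 in the WT hearts and 9581, 4374 and 22560 in the KO hearts. Ucp3, a mitochondrial carrier gene, had 364, 1754 and 423 in the WT hearts and 692, 419.8 and 1832 in the KO hearts. Both were highest in WT-2 and KO-3, hearts that differ in genotype, age and sex. Nr1d1 was highest in WT-2 and lowest in KO-3. The KO minus WT differences were 0.06 log2 for Pdk4 (SE 0.95, limma adjusted p = 0.988) and 0.33 for Ucp3 (SE 0.96, limma adjusted p = 0.934). The transferrin receptor gene Tfrc stood at 2570 in WT-1, 500.3 in WT-2 and 1127 to 1260 in the other 4.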
